A study of Mus musculus with 2 samples.

Results

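Joining peaks are stretches of the genome where a single enrichment peak of Dnmt3L-hairpin cells lies across several separate peaks of control cells. They were chosen by position alone, as the shDnmt3L peaks that overlapped 2 or more shGFP peaks by at least 1 bp each. Of 45579 shDnmt3L peaks, 1491 did so, which is 3.27% of that list. Because the rule compared both lists, this number and the overlaps below describe the 2 libraries and were not tested.

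The study used E14 cells, a mouse embryonic stem cell line. One culture was transfected with a hairpin RNA against GFP (shGFP), the control, and the other with a hairpin against Dnmt3L (shDnmt3L), so both cultures received a hairpin. Each group held 1 library, no value has a replicate error, and the labels do not say whether a culture was 1 clone. The level of Dnmt3L and the cell-type markers were not analysed here, since the lists hold peak positions and no expression.

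Dnmt3L has no methyltransferase activity of its own and helps the de novo enzymes Dnmt3a and Dnmt3b to place 5-methylcytosine. Tet enzymes oxidise that mark to 5-hydroxymethylcytosine, which in embryonic stem cells is known from gene bodies, enhancers and promoters of intermediate CpG content. Peak callers turn a continuous profile of reads into separate intervals, so neighbouring peaks stay apart where the signal between them dips below the caller's threshold. The labels name the assay MeDIP, a 5-methylcytosine method, while the capture kit they list binds glucosylated 5-hydroxymethylcytosine. The captured mark is therefore not named below.

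Coordinates are on mm9, per the submitters' processing notes, with the first base counted as 1. No genome or gene annotation of mm9 was used here, so genes and sequence under the peaks are not given. Read depth is unknown. The 95% intervals cover counting error only and treat neighbouring peaks as independent.

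Most joining peaks closed a single narrow gap between a pair of control peaks. Exactly 2 shGFP peaks lay under 1409 joining peaks (94.5%, Wilson 95% interval 93.2 to 95.5%), 3 lay under 76 and 4 under 6. The joined control peaks numbered 3066, or 5.55% of the shGFP list. Another 37952 shDnmt3L peaks met a single shGFP peak that met no other, and these are called one-to-one peaks. The remaining peaks were 412 over a shGFP peak that touched a further shDnmt3L peak, and 5724 over none.

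Joining peaks over more control peaks were wider and closed more gap. The median width was 4577 bp for peaks over 2 control peaks, 7606 bp over 3 and 14953 bp over 4. The gaps under each joining peak, summed, had a median of 187 bp, 540 bp and 3379 bp in the same order. Each further control peak adds a gap to that sum and length to the peak. Part of both rises therefore follows from the number joined. Peaks over 2 control peaks still ranged from 1443 to 35864 bp in width.

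Of the 6 joining peaks over 4 control peaks, 4 lay on chromosome 8. The widest ran from 123592084 to 123615657 on that chromosome and closed gaps of 573, 254 and 7650 bp. Its 4 control peaks were 4959, 2444, 3285 and 1487 bp wide. They had scores of 196, 83.8, 103 and 71.4 from the authors' peak caller, and the strongest stood at percentile 80.9 of the shGFP list. The joining peak itself had the second highest score of its list, 3153, which ranks it above 99.996% of the list. The next widest, on chromosome 8 from 111254154 to 111273301, closed gaps of 1297, 77 and 385 bp around a 9456 bp control peak with a score of 935.

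On chromosome 11, a 16823 bp peak from 103664960 to 103681782 closed a gap of 5949 bp and then 2 short gaps of 317 and 635 bp. On chromosome 8, a 13083 bp peak from 72893604 to 72906686 closed gaps of 1469, 3400 and 130 bp. A different shape was seen on chromosome 8 from 49328304 to 49338332. There the 10029 bp joining peak left 9476 bp of a 14723 bp control peak uncovered at 1 end and touched only 4 bp of a 1892 bp control peak at the other. It still counted as joining 4.

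**Figure D1:**
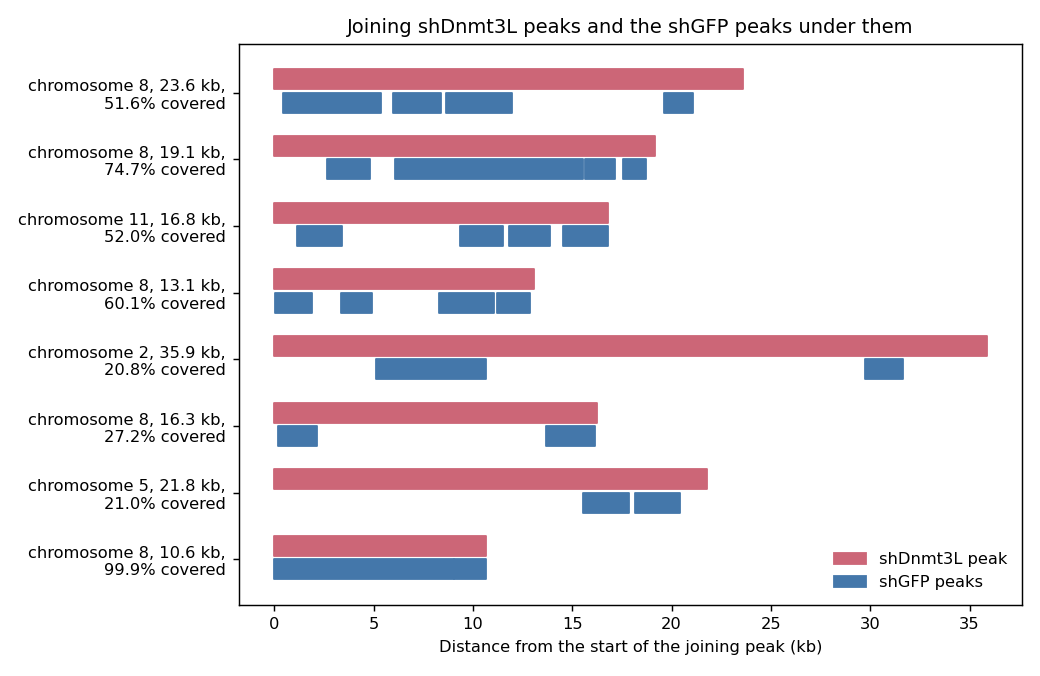
Each pair of bars shows 1 joining shDnmt3L peak (red) above the shGFP peaks under it (blue), with the distance from the start of the joining peak in kb on the horizontal axis. The 4 upper pairs are the widest over 4 control peaks, the next 2 closed the longest gaps (19.1 and 11.5 kb), the seventh lay mostly outside its control peaks, and the lowest closed a gap of 11 bp, too short to be seen at this scale.

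The gaps that were filled were far shorter than the usual distance between control peaks. The 1579 filled gaps had a median of 191 bp (95% order-statistic interval 179 to 210, quartiles 73 and 410 bp). Over all 55270 neighbouring shGFP pairs the median distance was 12240 bp. Gaps of at most 100 bp made up 31.9% of those filled, gaps of at most 500 bp 81.4%, and gaps of at most 1000 bp 92.1%. Over the whole lists, the median shDnmt3L peak was 378 bp wider than the median shGFP peak, and 72.1% of the filled gaps were no longer than that. The medians of one-to-one peaks were closer, at 2348 bp in shDnmt3L and 2115 bp in shGFP.

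A small set of long gaps held much of the filled length. The 124 gaps over 1000 bp were 7.85% of the filled gaps (Wilson 95% interval 6.63 to 9.28%) and 46.2% of the 631 kb filled. Only 10 gaps exceeded 5000 bp.

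Whether a control gap was closed fell steeply with its length. A single shDnmt3L peak bridged 78.8% of the 382 shGFP gaps of 1 to 50 bp (Wilson 95% interval 74.4 to 82.6%). It bridged 47.8% of gaps of 101 to 250 bp (44.5 to 51.0%) and 27.4% of gaps of 251 to 500 bp (25.1 to 29.98%). The share was 5.05% at 751 to 1000 bp (3.84 to 6.62%) and 0.450% at 2001 to 5000 bp (0.324 to 0.625%). The background over all neighbouring shGFP pairs was 2.86%, which the long gaps set.

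Closing was largely one-sided between the libraries. With the lists exchanged, 245 shGFP peaks lay over 2 or more shDnmt3L peaks, or 0.443% of the shGFP list. The number of joining peaks was 6.09 times as high. Among shDnmt3L gaps of 1 to 50 bp, 17.9% were bridged by a shGFP peak (13.7 to 23.0%), and among those of 251 to 500 bp 5.90% (4.54 to 7.64%). Over all neighbouring shDnmt3L pairs the background was 0.547%. In every length class up to 5000 bp the share bridged was higher for shGFP gaps, and the 2 intervals did not overlap. The filled gaps themselves had nearly the same median in this direction, 193 bp (154 to 207). Limiting the lists to scores of 100 or more left 514 joining peaks and 82 in the exchanged direction. Merging only the shGFP peaks within 500 bp of each other turned the order, to 285 and 1146. Merging both lists kept it, at 859 and 179.

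**Figure D2:**
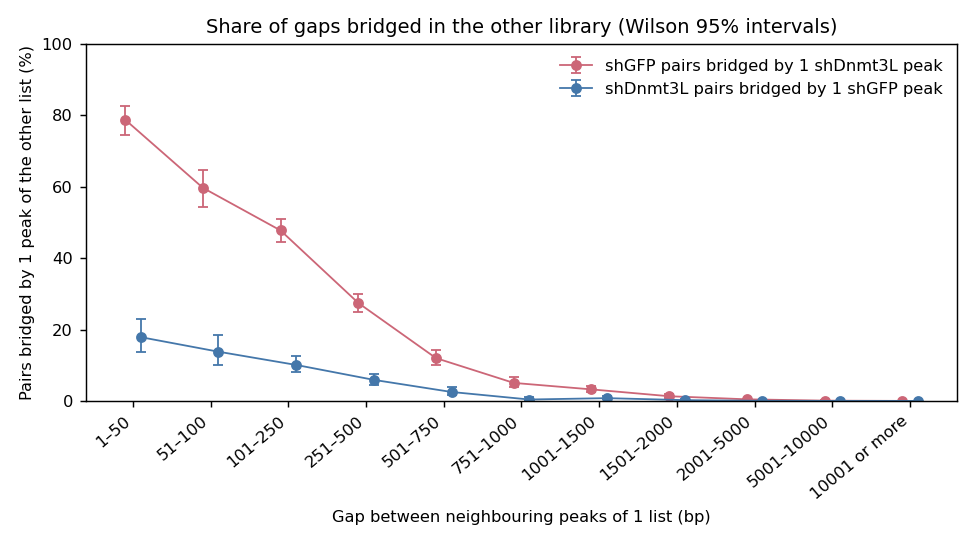
The horizontal axis gives classes of gap length between neighbouring peaks of 1 list, in bp, and the vertical axis the percentage of those gaps bridged by a single peak of the other list, with Wilson 95% intervals. The shGFP gaps (red) go from 78.8% bridged at 1 to 50 bp to 0.450% at 2001 to 5000 bp, and the shDnmt3L gaps (blue) from 17.9% to 0.0325%.

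Joining accounts for a minor part of the shorter shDnmt3L list. The list held 9713 fewer peaks than the shGFP list. Joins in both directions gave shGFP 1330 more shared peaks than shDnmt3L, or 13.7% of that difference. The other 8383 came from peaks that overlapped nothing in the other list.

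The ground under joining peaks was for the most part already enriched in the control. A median of 88.8% of a joining peak lay under shGFP peaks (95% order-statistic interval 88.2 to 89.6%, quartiles 80.4 and 94.6%). At least 75% was covered in 1235 of 1491 (82.8%), and at least 90% in 687 (46.1%). For one-to-one peaks the median was 93.2%. Summed over all joining peaks, 6.52 Mb of 7.91 Mb lay under shGFP peaks, 0.631 Mb in the gaps between them and 0.762 Mb in ends outside them. Filled gaps were thus 7.98% of the length and the ends 9.63%.

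At the median, the outer borders of joining peaks lay close to those of the control. The median end lay 32 bp outside the outermost control peak on the left and 43 bp outside on the right. The upper quartiles were 242.5 and 249 bp outside, longer than the median filled gap of 191 bp. Of 2982 ends, 416 fell on the same base as the control border, 471 exactly 32 bp outside it, 1520 more than 32 bp outside and 449 inside it. Only 158 ends (5.30%) reached more than 1000 bp beyond. In 1077 joining peaks (72.2%) all joined control peaks were held whole.

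Among peaks of 6 kb or more, joining peaks had more of their length covered by control peaks than one-to-one peaks of the same width. Between 8 and 10 kb, 76.9% of the summed length of 86 joining peaks lay under shGFP peaks, against 58.5% for 83 one-to-one peaks. At 10 kb or more the values were 63.4% for 68 joining peaks and 41.3% for 69 one-to-one peaks. Between 2 and 3 kb the 2 kinds were close, with 89.1% and 88.4%. In the classes between 3 and 6 kb, which held most joining peaks, the order depended on the measure. Between 4 and 5 kb the summed length gave 87.8% for joining and 80.2% for one-to-one peaks, while the median peak was covered to 89.5% and 91.4%. The medians were also lower for joining peaks between 3 and 4 kb, at 90.6% against 91.5%, and between 5 and 6 kb, at 86.0% against 88.4%. Having 2 or more control peaks beneath is part of the rule, so this is a description of the kinds and no test.

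**Figure D3:**
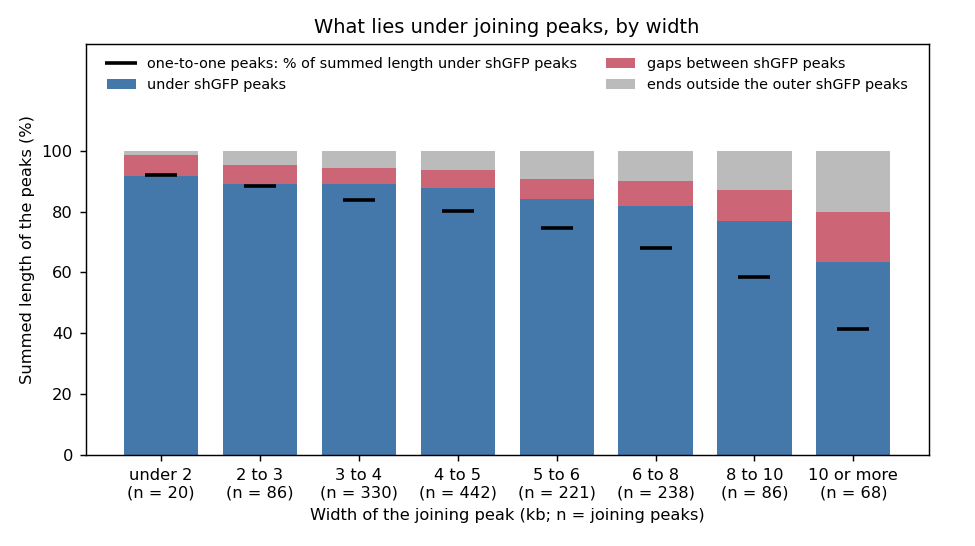
Bars give, for joining peaks in 8 classes of width in kb, the percentage of their summed length under shGFP peaks (blue), in gaps between them (red) and in ends outside them (grey), and black marks give the covered percentage for one-to-one peaks of the same width. Blue falls from 91.8% below 2 kb to 63.4% at 10 kb or more, while the black marks fall from 92.0% to 41.3%.

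Joining was rare among narrow peaks and frequent among wide ones. It was seen in 0.355% of shDnmt3L peaks between 2 and 3 kb, 5.53% between 3 and 4 kb, 20.5% between 5 and 6 kb and 36.4% between 8 and 10 kb (Wilson 95% interval 30.6 to 42.7%). At 10 kb or more it was seen in 27.9% (22.6 to 33.8%). A joining peak has to reach 2 or more control peaks and span the gaps between them. Part of the rise with width therefore follows from the rule. The median joining peak was 4668 bp wide and 1.10 times as wide as its joined control peaks laid end to end.

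In 38 joining peaks (2.55%) less than 50% of the length lay under control peaks. These lay on 15 chromosomes, 14 of them on chromosome 8, and had a median width of 10617 bp. In 14 the gaps were longer than the outer ends, and in 24 the ends were longer. Their control peaks had a median score percentile of 75.5 for the strongest and 33.7 for the weakest in each. Over all joining peaks these medians were 79.1 and 37.5, so the inequality was not particular to the 38.

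The least covered was on chromosome 2 from 33469173 to 33505036. This 35.9 kb peak, the widest of all joining peaks, had 20.8% of its length under 2 control peaks of 5545 and 1904 bp. The gap between them, 19071 bp, was the longest filled anywhere. Its ends added another 9344 bp.

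On chromosome 8, a 16.3 kb peak from 94319967 to 94336220 spanned a gap of 11535 bp and ended within 186 bp of its control peaks on either side. In that interval the shDnmt3L signal was thus called across ground where shGFP had peaks at the borders only. The same outline was seen on chromosome 8 from 123252072 to 123271402, where the gap was 11298 bp and both ends lay 32 bp outside. On chromosome 10, gaps of 8269 and 8224 bp were filled by peaks from 84213216 to 84227514 and from 79949873 to 79967638.

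Other poorly covered peaks had their extra length outside and not between their control peaks. On chromosome 5, the 21.8 kb peak from 106878776 to 106900577 closed only 330 bp between 2 control peaks. It ran 15525 bp past them on the left. On chromosome 13, a 13.9 kb peak from 73396715 to 73410567 closed 1965 bp and ran 7338 bp past on the left.

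At the opposite end were wide joining peaks whose control peaks were all but continuous. On chromosome 8, the interval from 63748462 to 63759106 was 99.9% covered by control peaks of 9042 and 1592 bp separated by 11 bp, and both outer borders were the same base. On chromosome 4, from 136342065 to 136348380, the control peaks of 2080 and 4249 bp were 8 bp apart. Gaps of 11, 19 and 8 bp separated the control peaks of the other 3 named by this rule. They began at 87577130 on chromosome 6 and at 119894665 and 90024178 on chromosome 8.

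Control peaks under a joining peak were unequal in score, as close control peaks were in general. The score is the authors' value for each peak and was ranked within its own list. Under each joining peak, the highest-scoring control peak stood at a median percentile of 79.1 of the shGFP list and the lowest-scoring at 37.5. The strongest was in the top 25% of the list in 839 joining peaks (56.3%), and the weakest in the bottom 25% in 527 (35.3%). Both held in 200 (13.4%). In 178 joining peaks (11.9%) every joined control peak was in the top 25%. As a maximum and a minimum of 2 or more values, these medians part even for unrelated peaks. The 912 control pairs 251 to 500 bp apart that were not bridged had medians of 76.7 and 34.1. All joined control peaks together had a median percentile of 59.9, against 62.5 for one-to-one control peaks and 17.8 for those with no shDnmt3L peak.

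Joining peaks themselves stood high in their list. Their median score was 239, at percentile 85.0, against 50.7 for one-to-one shDnmt3L peaks, and 360 (24.1%) were in the top 5% of the list. They were also wider, and wide peaks score higher. The median percentile of one-to-one peaks was 28.2 below 2 kb and 99.5 at 10 kb or more. At matched width the order was not the same. Between 4 and 5 kb the median percentile was 79.4 for joining peaks (order-statistic interval 77.8 to 81.0) and 84.1 for one-to-one peaks (83.5 to 85.0). Between 5 and 6 kb the medians were 91.0 and 91.1, with overlapping intervals.

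**Figure D4:**
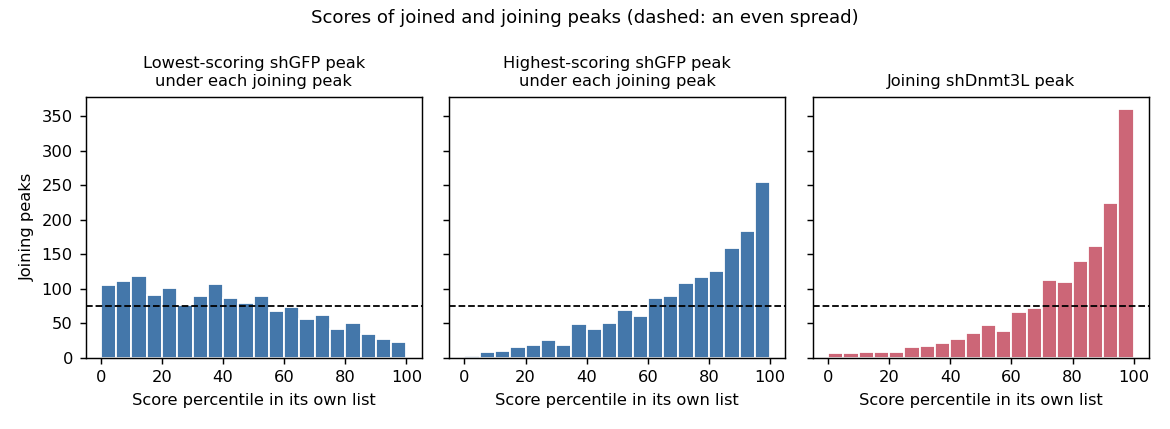
Histograms of score percentile, each within its own list and in steps of 5, for the lowest-scoring and highest-scoring shGFP peak under each joining peak (blue) and for the joining shDnmt3L peak (red), with the number of joining peaks on the vertical axis. The medians are 37.5, 79.1 and 85.0, and the dashed line marks the height of an even spread.

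Control peaks at a bridged gap were compared with those at a gap of the same length class that was not bridged. Lengths were not matched within a class, and the median bridged gap was shorter than the median open gap in all 5 classes. At 1 to 100 bp it was 39 bp against 63 bp over all open gaps, and at 501 to 1000 bp 671 against 756 bp. The part of gap length in the contrasts below was not tested. For gaps of 101 to 250 bp, the weaker control peak stood at a median percentile of 32.6 at 436 bridged gaps (order-statistic interval 29.9 to 36.8). It stood at 50.01 at 299 open gaps with a shDnmt3L peak on each side (45.6 to 53.6). Such open gaps needed a shDnmt3L peak over each neighbour, and control peaks with none had low scores, as given above. Over all 477 open gaps of this class the weaker peak stood at 34.8 (32.3 to 38.3), an interval that overlapped that of the bridged gaps. In the other 4 classes up to 2000 bp it stood higher at bridged gaps than at all open gaps. At 501 to 1000 bp the values were 43.6 (38.5 to 50.5) and 35.6 (33.6 to 37.6), with intervals that did not overlap. They overlapped at 1 to 100 bp, with 39.0 (36.7 to 42.1) and 29.4 (23.7 to 37.4), at 251 to 500 bp, with 39.97 and 34.1, and at 1001 to 2000 bp, with 37.1 and 35.2. Against open gaps with a shDnmt3L peak on each side, the weaker peak stood lower at bridged gaps in all 5 classes up to 2000 bp, with overlapping intervals at 501 to 1000 bp. The summed width of the flanking control peaks was lower at bridged gaps than at all open gaps in the 4 classes up to 1000 bp. The intervals parted only at 101 to 250 bp, with 3932 bp (3821 to 4030) against 4369 bp (4224 to 4484). They overlapped at 1 to 100 bp, with 4209 and 4266 bp, and at 251 to 500 bp, with 4153 and 4350 bp. They also overlapped at 501 to 1000 bp, with 4065 and 4327 bp, and at 1001 to 2000 bp, with 4303 and 4285 bp. Against open gaps with a shDnmt3L peak on each side, the summed width was lower at bridged gaps in all 5 classes. Those intervals overlapped at 1001 to 2000 bp only. Control peaks with no shDnmt3L peak, which such open gaps leave out, were narrow, with a median width of 1605 bp.

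Joining peaks were spread over all 19 autosomes, with 1 on the X chromosome and none among the 6 shDnmt3L peaks of the Y chromosome and the 1 of the mitochondrial genome. Chromosome 8 stood apart. It held 280 joining peaks, 18.8% of all, against 10.9% of all shDnmt3L peaks. Of its shDnmt3L peaks 5.63% were joining (Wilson 95% interval 5.02 to 6.30%), against 2.99% on the other autosomes together (2.83 to 3.16%). The other 18 autosomes ranged from 1.95% on chromosome 13 to 4.06% on chromosome 15. Joining peaks numbered 2.13 per Mb on chromosome 8 and 0.240 to 0.838 per Mb on the others. Of the 82 joining peaks over 3 or more control peaks, 24 lay on chromosome 8.

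The excess on chromosome 8 went with closer spacing of its control peaks. Gaps of at most 500 bp were 8.56% of neighbouring shGFP pairs there (7.86 to 9.32%) and 4.87% on the other autosomes (4.68 to 5.06%). Once such a gap was present, it was bridged in 47.0% of cases on chromosome 8 (42.6 to 51.5%) and in 44.0% on the other autosomes (42.0 to 45.9%), and these intervals overlapped. Chromosome 8 is also the densest in peaks in both lists, and the part of that density in the excess was not tested beyond these values. On the X chromosome 2 such gaps existed and 1 was bridged, too few for a share.

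**Figure D5:**
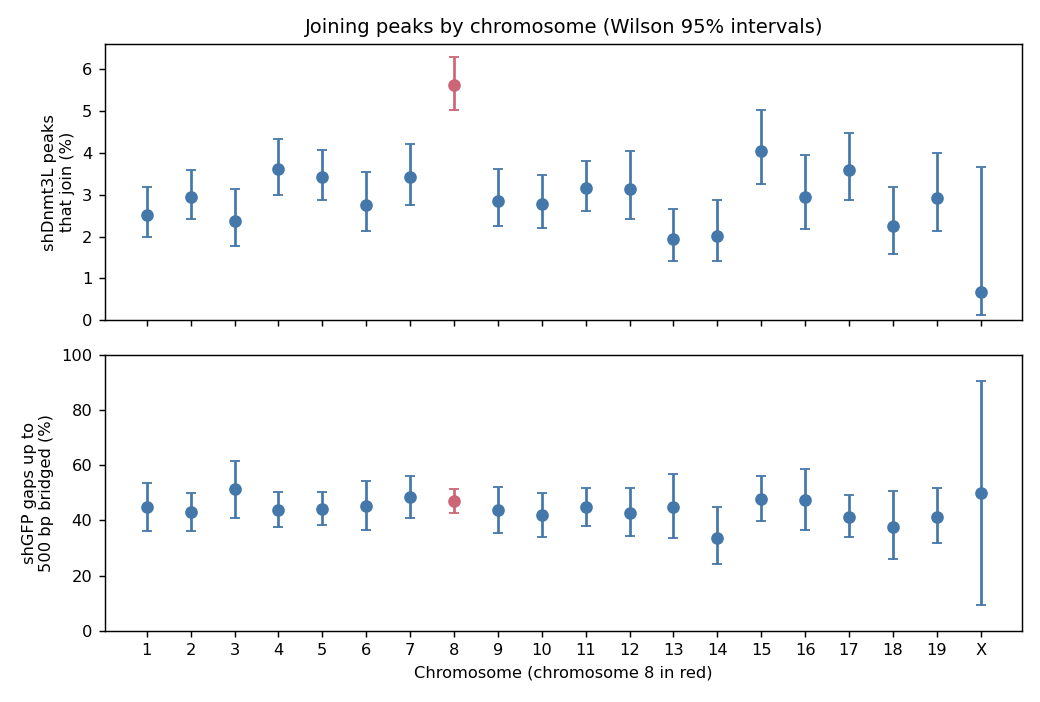
For each chromosome, the upper panel gives the percentage of shDnmt3L peaks that were joining and the lower panel the percentage of shGFP gaps of at most 500 bp that were bridged, both with Wilson 95% intervals. Chromosome 8 (red) is highest in the upper panel at 5.63%, and in the lower panel, at 47.0%, it lies within the range of 33.8 to 51.2% of the other autosomes.

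Dense stretches over all chromosomes together also held more joining peaks. In windows of 1 Mb with fewer than 10 control peaks, 0.724% of shDnmt3L peaks were joining (0.469 to 1.12%), against 5.27% in windows with 60 or more (4.91 to 5.66%). The share of short gaps bridged did not follow this order, at 52.9% (36.7 to 68.5%) in the first and 45.1% (42.5 to 47.8%) in the second. Windows were classed by the control peaks that the rule itself counts. Gaps of at most 500 bp numbered 34 in the first and 1355 in the second. Part of the rise in joining therefore follows from the rule. In the densest windows, 6.73% of shDnmt3L peaks were joining on chromosome 8 (5.93 to 7.63%) and 4.79% elsewhere (4.39 to 5.22%). On chromosome 8 alone the share did not rise steadily, at 4.70% (2.64 to 8.22%) in windows with 20 to 29 control peaks, 2.07% (0.889 to 4.76%) with 30 to 39 and 4.21% (3.05 to 5.77%) with 40 to 59.

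Joining peaks lay near one another more often than one-to-one peaks lay near a joining peak. Of the 1491, 648 (43.5%, Wilson 95% interval 41.0 to 46.0%) had another within 100 kb, against 27.3% of one-to-one peaks with a joining peak at that distance (26.9 to 27.8%). Without chromosome 8 the shares were 37.4% and 24.3%. The 2 kinds were not matched for local density of peaks. Windows with 60 or more control peaks held 709 of the 1491 joining peaks and 13447 of all 45579 shDnmt3L peaks. The part of density in this contrast was not tested. Linked at 100 kb, they formed 1082 groups, 239 of them with 2 or more. Of 2350 windows of 1 Mb with any shDnmt3L peak, 694 (29.5%) held a joining peak and 62 held 5 or more, 24 of these on chromosome 8.

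The largest group held 21 joining peaks on chromosome 8 from 119414667 to 120231891. That stretch of 817 kb carried 131 shGFP peaks and 112 shDnmt3L peaks. The joining peaks there covered 43 control peaks and closed 6542 bp of gap in all. Elsewhere the largest groups were much smaller. They held 7 joining peaks on chromosome 4 from 136207608 to 136440078, 7 on chromosome 15 from 83682497 to 83886895, and 5 each on chromosome 17 from 27513881 to 27647378 and on chromosome 11 from 69157118 to 69344017. The densest windows of 1 Mb began at 122000001, 119000001 and 123000001 on chromosome 8, with 18, 17 and 16 joining peaks.

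Few joining peaks sat at the edge of the rule. The smallest of the overlaps was at most 10 bp in 5 joining peaks and at most 100 bp in 46. In 3 it was 4 bp, among them the peak at 109979889 to 109986382 on chromosome 5 and that at 34272092 to 34274325 on chromosome 6. Just outside the rule, 1 shDnmt3L peak abutted a second control peak without overlap, from 93730816 to 93734539 on chromosome 16. In all, 31 lay within 10 bp of a second control peak and 466 within 100 bp.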

How the data were processed

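The authors deposited 1 list of enrichment peaks per library, each peak having coordinates, a name and a score. MACS 1.4.1, Bowtie 0.12.7, CASAVA 1.8 and mm9 are named in the submitters' processing notes, without roles, and peak names begin with MACS per the files. Nothing in the sources used here gives the input control, duplicate handling or read depth. The score was deposited with no stated unit. Its lowest value is near 50 in each list.

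Overlaps, gaps and medians were computed in Python 3.11.15 (scipy 1.17.1, pandas 2.3.3 and numpy 2.4.6). Gaps are the bases between neighbouring shGFP peaks under the same shDnmt3L peak. Shares carry Wilson intervals and medians exact order-statistic intervals. With 1 library per group no p-value was computed. Named regions follow ranks by number joined, gap length, share covered and group size. The members, ranks and classes were chosen with earlier results of these data known. Tested on simulated data for shDnmt3L against shGFP, the code found all 600 joins made among 55292 shGFP peaks. Each simulated joining peak held its control peaks whole, so this check of the code did not cover partial overlaps or chains. The alternatives were other overlap rules, a score minimum, equal list lengths, merging, shortened peaks, lists without chromosome 8 and other linking distances. Genes and base composition were left out, since no mm9 reference was used here.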

Additional observations from a re-analysis of the deposited data

How the results depend on the processing

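Of 72 alternative values, 47 kept within their range, 24 left it and 1 reversed. The range was the counting interval for shares and medians and a factor of 1.5 for numbers. Shortening to the shGFP median width (189 bp cut from each end), merging in both lists, and every alternative for the exchanged direction were chosen after seeing the data. Scores of 100 or more in both lists gave 514 joining peaks (82 with the libraries exchanged), 3.11% over 3 or more, a median gap of 227 bp, 89.7% covered and 5.47% of gaps of 501 to 2000 bp bridged. Merging shGFP peaks within 500 bp removed the short gaps by construction and gave 285 joining peaks (1146 exchanged, a log2 ratio of −2.01 against 2.61), 3.16% over 3 or more, a median gap of 847 bp and 75.6% covered. No share for gaps of 1 to 500 bp exists after either merging. Merging both lists gave 859 joining peaks, a median gap of 806 bp, 79.3% covered and 14.7% of gaps of 501 to 2000 bp bridged. Asking for 50% of each joined peak gave 160 in the exchanged direction and 40.4% of gaps up to 500 bp bridged. Equal list lengths gave 4.38% over 3 or more. Shortening by 32 bp gave 89.7% covered, and to the median width 91.7% covered and 42.4% of gaps up to 500 bp bridged. Without chromosome 8, 4.07% of gaps of 501 to 2000 bp were bridged. Linking at 50 or 200 kb gave 28.9% and 56.7% with a near neighbour. The number of joining peaks stayed between 1141 and 1473 under the other settings. Shortening cut only the outer ends of shDnmt3L peaks and could not reopen a gap between control peaks. It could end a join only where a peak barely reached an outer control peak. The counts of 1473 and 1430 under shortening were thus nearly set by construction. The cause of the other shifts was not tested. The alternatives for genes and promoters were not run. The depth of reads is unknown, so how it limits these peaks was not tested. No paired analysis was possible because there is a single library per group.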

Other observations

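Some joining peaks were links in longer chains. In 81 joining peaks (5.43%) a control peak beneath also touched another shDnmt3L peak, through 78 such shGFP peaks, of which 4 lay under 2 joining peaks at once. At these places the libraries divided the same stretch at different points, and neither list was a simple merging of the other.

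The 245 shGFP peaks over 2 or more shDnmt3L peaks were mostly over exactly 2 (241 peaks), with 4 over 3. The 249 gaps they spanned reached 2212 bp at most, against 19071 bp for gaps filled by shDnmt3L peaks. None of the 32894 shDnmt3L gaps over 5000 bp was bridged by a shGFP peak, which allows a share of up to 0.00912%, while 10 shGFP gaps of that length were bridged by a shDnmt3L peak.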
